A study of Mus musculus with 36 samples.

Results

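The 4 neuregulin genes (Nrg1, Nrg2, Nrg3 and Nrg4) and the 4 ERBB receptor genes (Egfr, Erbb2, Erbb3 and Erbb4) were examined for peaks of a PAX6 ChIP-seq assay in mouse enteric precursor cells (EPCs). These 8 genes were taken by name from the 22367 protein-coding genes of the GENCODE M1 annotation of mm9, as families of a signalling pathway, and the rule that assigned peaks to them used no score or count. A peak was assigned to a gene when its centre lay in the gene body or within 100 kb of it, a span called the window below. Of 3254 peaks in all, 2247 from PAX6 and 1007 from IgG, 5 lay in these windows, 1 from PAX6 and 4 from IgG. No PAX6 peak lay inside the body of any of the 8 genes, as was the case for most protein-coding genes, of which 3.11% had one. Among genes of 0.5 to 2 times the length of each member, that share ran from 1.57% for Erbb3 to 50% for Nrg3. Those shares added up to 1.47 genes of 8.

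The EPCs were isolated from ganglionic gut of 7-day-old CD-1 mice (postnatal day 7) and grown as neurosphere-like bodies (NLBs), cell aggregates of neural crest origin. All groups shared this strain, age and culture, and the medium of all of them held epidermal growth factor (EGF), which is itself an EGFR ligand, at 20 ng/ml, basic fibroblast growth factor at 20 ng/ml and glial cell-derived neurotrophic factor at 10 ng/ml. Chromatin was precipitated with an antibody against PAX6 (16 libraries, in pools of 4, 6 and 6), kept as input (16 libraries, divided between the pools in the same way) or precipitated with mouse IgG as negative control (4 libraries, all labelled pool 1). The authors merged the libraries of each pool before they called peaks, so that the 3 pools are the only replicates of PAX6 and IgG is 1 list. No genotype or treatment was compared, and how many mice gave each pool is not given in the sources used here. Peak lists hold no expression, so the identity of the cells could not be checked against marker genes.

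Neuregulins are ligands that carry an EGF-like domain, and they signal through the ERBB receptors, a family of receptor tyrosine kinases that act as dimers. NRG1 and NRG2 bind ERBB3 and ERBB4, whereas NRG3 and NRG4 bind ERBB4. EGFR is bound by EGF and its relatives, and ERBB2, which has no known ligand of its own, is the preferred partner of the other receptors. In the neural crest lineage, signalling of neuregulin 1 through ERBB3 and ERBB2 is known for its part in the formation of glia. In mice, ERBB2 is needed for the survival of enteric neurons after birth, which does not by itself place that need in cells of neural crest origin.

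The mm9 sequence under the 5 peaks in the windows, and under the PAX6 peak just outside the window of Erbb2, is shown because each of these 6 held a long CA or TG run. The other 5 peaks within 500 kb of a member did not, with longest runs of 0 to 8 bp. The longest run is in capitals, the stretch shown is 240 bases on the plus strand, 5′ to 3′, and the regions are chr11:16906777-16907016 (Egfr), chr11:98170278-98170517 (Erbb2, PAX6), chr14:40135632-40135871 (Nrg3), chr9:55264134-55264373 (Nrg4), chr11:98359563-98359802 (Erbb2, IgG) and chr1:69187804-69188043 (Erbb4).
Egfr window, PAX6 pool 2: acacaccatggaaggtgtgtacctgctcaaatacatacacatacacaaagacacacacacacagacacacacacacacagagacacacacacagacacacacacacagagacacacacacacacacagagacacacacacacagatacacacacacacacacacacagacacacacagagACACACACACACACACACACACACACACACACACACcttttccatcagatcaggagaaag
Erbb2, PAX6 pool 2, just outside the window: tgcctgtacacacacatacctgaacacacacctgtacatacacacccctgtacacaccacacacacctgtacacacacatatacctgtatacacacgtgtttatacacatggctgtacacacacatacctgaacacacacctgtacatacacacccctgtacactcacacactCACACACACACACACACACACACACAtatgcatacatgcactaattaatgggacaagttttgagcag
Nrg3 window, IgG: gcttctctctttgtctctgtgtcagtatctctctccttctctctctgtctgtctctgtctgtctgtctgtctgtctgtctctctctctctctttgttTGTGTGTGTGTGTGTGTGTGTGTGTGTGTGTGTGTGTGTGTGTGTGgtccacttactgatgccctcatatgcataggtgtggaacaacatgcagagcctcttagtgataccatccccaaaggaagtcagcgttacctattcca
Nrg4 window, IgG: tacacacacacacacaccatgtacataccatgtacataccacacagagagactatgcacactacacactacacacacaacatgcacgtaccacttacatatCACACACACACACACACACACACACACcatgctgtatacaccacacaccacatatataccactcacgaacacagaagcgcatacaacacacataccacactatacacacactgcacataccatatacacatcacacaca
Erbb2 window, IgG: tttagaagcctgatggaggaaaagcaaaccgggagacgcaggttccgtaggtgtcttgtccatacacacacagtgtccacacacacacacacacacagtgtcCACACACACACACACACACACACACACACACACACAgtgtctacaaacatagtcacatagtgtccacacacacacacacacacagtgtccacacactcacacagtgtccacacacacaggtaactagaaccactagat
Erbb4 window, IgG: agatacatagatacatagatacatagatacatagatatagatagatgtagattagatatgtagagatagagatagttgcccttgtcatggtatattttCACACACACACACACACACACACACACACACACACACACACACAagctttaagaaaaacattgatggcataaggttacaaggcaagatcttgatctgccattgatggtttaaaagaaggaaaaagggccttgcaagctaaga

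The PAX6 lists of pools 1, 2 and 3 held 491, 1032 and 724 peaks and the IgG list held 1007. Of these, 489, 1018, 712 and 1006 lay on chromosomes 1 to 19, X and Y, which is 0.184, 0.383, 0.268 and 0.379 peaks per Mb. Counts given by length and shares of peaks over the whole series rest on the peaks on these chromosomes, and ranks on the full lists. Each peak carries a score, taken here as the authors' p-value from MACS on a −log10 scale multiplied by 10, since the study heads such a column in this way and the lists have no header of their own. It had a lowest value of 50.04 to 50.16 in the 4 lists. The score depends on depth, which is unknown here because the lists hold no read counts, and therefore scores were ranked only within a list. Counts of peaks are given with exact Poisson 95% intervals, which cover counting error only. No test was made, since 3 PAX6 lists against 1 IgG list cannot give an exact permutation p below 0.25.

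The 8 genes differ widely in length, and the length sets how many peaks a window would hold at the density of each list. Nrg3 (1104 kb) and Erbb4 (1076 kb) are among the 52 protein-coding genes of the annotation that are at least 1000 kb long. Nrg1 (191 kb), Nrg2 (179.7 kb), Egfr (166 kb) and Nrg4 (107 kb) are of intermediate length, while Erbb2 (25.2 kb) and Erbb3 (22.1 kb) are short. The 8 windows cover 4.47 Mb, 0.168% of the chromosomes, and the gene bodies alone cover 2.87 Mb. All 8 together took 1 PAX6 peak (interval 0.0253 to 5.57), where the window length gives 3.74, a ratio of 0.268 with an interval of 0.00678 to 1.49. The interval includes the value given by length, so that a deficit was not detectable with this number of peaks.

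Pool 1 had 0 peaks in the 8 windows, where length gives 0.823, and pool 3 had 0 where length gives 1.20. Both counts of 0 allow up to 3.69 peaks by the same interval. Pool 2 had 1 peak, where length gives 1.71. The density of peaks in the windows relative to the chromosomes was 0 in pool 1, 0.583 in pool 2 and 0 in pool 3, a mean of 0.194 ± 0.337 (SD, n = 3 pools). The spread between the pools thus exceeded the mean, and it rested on a single peak. IgG had 4 peaks (interval 1.09 to 10.2), where length gives 1.69, a ratio of 2.36 with an interval of 0.643 to 6.05. The IgG count was higher than that of each pool and of the 3 pools together, but its interval also includes the value given by length, and overlaps the interval of the PAX6 count.

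**Figure D1:**
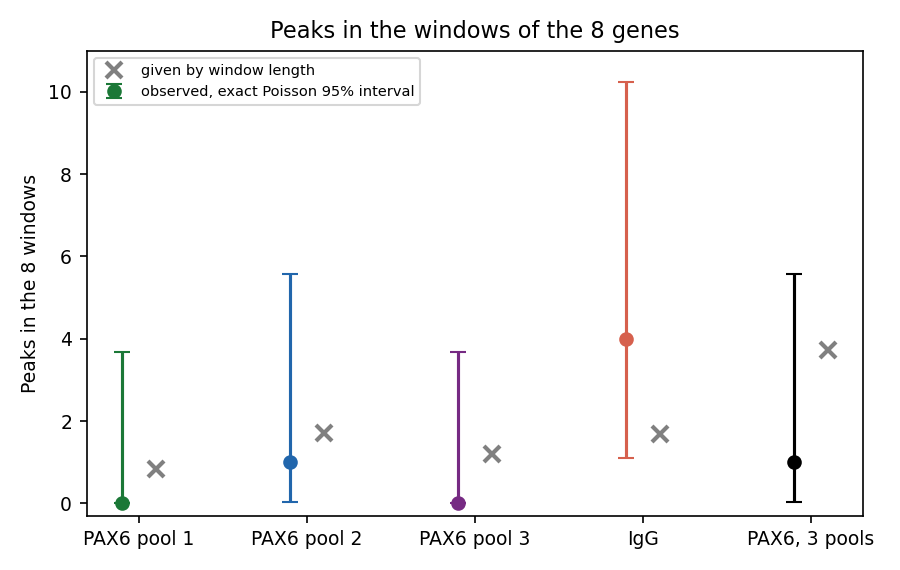
Peaks with their centre in the windows of the 8 genes (y axis, count) in each list and in the 3 PAX6 pools together; dots are observed counts with exact Poisson 95% intervals and crosses are the counts that window length and peak density give. PAX6 stands at 1 peak against 3.74 and IgG at 4 against 1.69, and every interval includes its cross.

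Counted by gene, 0 of the 8 had a peak of pool 1 in its window, where 4.25% of all protein-coding genes had one. In pool 2 it was 1 of 8 (background 8.07%), in pool 3 it was 0 of 8 (background 6.83%), and in any PAX6 pool it was 1 of 8 (background 17.5%). IgG peaks lay in the windows of 4 of 8 (background 8.62%). Among genes of 0.5 to 2 times the length of each member, the shares with a PAX6 peak added up to 2.48 genes of 8 and those with an IgG peak to 1.40 genes of 8. In gene bodies alone there were 0 PAX6 peaks, where length gives 2.40, and 1 IgG peak, where length gives 1.09. The genes with an IgG peak (Nrg3, Nrg4, Erbb2 and Erbb4) and the gene with a PAX6 peak (Egfr) were different ones. With 1 PAX6 gene this is a description only, since the share of all genes with both kinds of peak was not computed. Nrg1, Nrg2 and Erbb3 had no peak of any list in their windows.

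**Figure D2:**
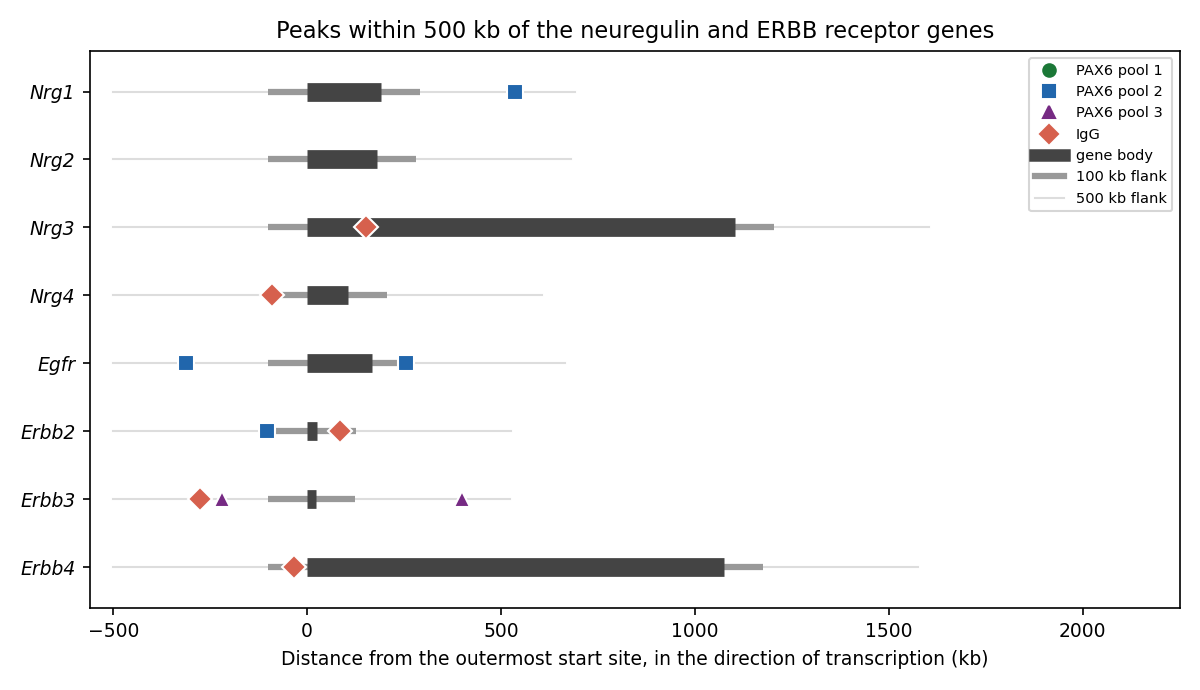
Positions of all peaks within 500 kb of the 8 genes, each drawn along its gene (y axis) by the distance in kb from the outermost start site in the direction of transcription (x axis); thick bars are gene bodies, grey bars the 100 kb flanks and thin lines the 500 kb flanks. The single PAX6 peak in a window lies 88.7 kb past the end of Egfr, and the only peak inside a gene body is the IgG peak in Nrg3.

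Among the ligand genes, no PAX6 peak of any pool lay in a window, where the 4 neuregulin windows (2.38 Mb) give 1.99 by length. IgG had 2 peaks there, where length gives 0.902. Nrg1, which encodes the neuregulin with the best known part in glia and in the heart, lies on the minus strand at chr8:32928500-33119581 (ENSMUSG00000062991.5). Its nearest PAX6 peak was 345.9 kb downstream, at chr8:32582418-32582727 in pool 2, with a score of 84.05 and rank 212 of 1032. This peak lay in no annotated gene and held no CA or TG run of at least 20 bp. From the gene body, the nearest peak of pool 1 was at 3875 kb, of pool 3 at 3032 kb and of IgG at 1094 kb. The model of Nrg1 in GENCODE M1 is shorter than that of RefSeq, which spans 1084 kb on a later build. A span of that length from the same 3′ end, with flanks, held 0 peaks of every list, where its length gives 1.07 for PAX6 and 0.487 for IgG. Among the 2165 genes of 0.5 to 2 times its length in GENCODE M1, 27.8% had a PAX6 peak in the window.

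Nrg2, a neuregulin expressed in the nervous system, lies on the minus strand at chr18:36177333-36357034 (ENSMUSG00000060275.4). It stood farthest from PAX6 peaks of all 8 genes, with the nearest at 1494 kb in pool 2. The nearest peaks of pool 1 and pool 3 were at 3454 kb and 5452 kb, and that of IgG at 615 kb. Of the 2313 genes of like length, 27.5% had a PAX6 peak in the window.

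Nrg3, a ligand of ERBB4 expressed in the brain, lies on the minus strand at chr14:39182138-40286376 (ENSMUSG00000041014.9). Its window alone would hold 1.09 PAX6 peaks by length and held none, and the nearest lay 901 kb away (pool 2). Those of pool 3 and pool 1 were at 1685 kb and 2631 kb. The IgG peak at chr14:40135534-40135894 lay in intron 1 of 10, 150 kb downstream of the nearest Nrg3 start site. It had a score of 68.75, which 67 peaks of the IgG list share, and rank 355 of 1007. The sequence printed above shows its TG run of 46 bp, the longest of the 5 peaks in the windows. Of the 158 genes of like length, 55.7% had a PAX6 peak in the window and 36.7% an IgG peak.

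Nrg4, a ligand of ERBB4 secreted by fat tissue, lies on the minus strand at chr9:55068029-55174651 (ENSMUSG00000032311.10). Its nearest peaks of pools 1 and 2 were at 1434 kb and 1474 kb, and that of pool 3 at 5551 kb. The IgG peak of its window, at chr9:55264134-55264546, was 89.7 kb upstream, in intron 8 of 10 of AI118078. Its score of 80.05 gave rank 204 of 1007. The nearest start site was that of Etfa, a subunit of the electron transfer flavoprotein of mitochondria, at 71.0 kb. With the span of its protein-coding transcripts in place of the whole gene model, this peak fell outside the window and Nrg4 had no peak of any list. Of the 3695 genes of like length, 22.7% had a PAX6 peak in the window and 11.04% an IgG peak.

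Among the receptor genes, the windows (2.09 Mb) held 1 PAX6 peak, where length gives 1.75, and 2 IgG peaks, where length gives 0.792. Egfr, which encodes the receptor of EGF, lies on the plus strand at chr11:16652206-16818161 (ENSMUSG00000020122.9). The pool 2 peak at chr11:16906678-16907016 (339 bp) had a score of 115.84, rank 78 of 1032, with 90.9% of the list below it and 17 peaks at the same score. It lay 88.7 kb downstream of the end of Egfr and 102 kb from the nearest start site of an Egfr transcript. The gene around the peak was another: it lay in intron 1 of 9 of Plek, 1858 bp downstream of the start site of that gene, which encodes pleckstrin, a substrate of protein kinase C in platelets and leukocytes. No peak of pool 1, pool 3 or IgG overlapped it, and the nearest peak of another list was 3025 kb away, in pool 1. Under it lay 2 CA repeats of at least 20 bp, of which the longer measured 36 bp, in a stretch of shorter, interrupted CA blocks, as the sequence printed above shows. A second pool 2 peak with the same score, at chr11:16340353-16340711, lay 312 kb upstream of Egfr, outside its window, 1275 bp from the pseudogene Gm12012. From Egfr the nearest peaks of pool 1, pool 3 and IgG were at 3114 kb, 5036 kb and 8411 kb. Of the 2513 genes of like length, 26.8% had a PAX6 peak in the window.

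Erbb2, the receptor without a known ligand, lies on the plus strand at chr11:98273784-98299030 (ENSMUSG00000062312.5). No PAX6 peak lay in its window, but the limit of 100 kb cut narrowly: the pool 2 peak at chr11:98169913-98170517 was 103.569 kb upstream, 3569 bp beyond the limit. Its score of 71.44 gave rank 436 of 1032, it overlapped no peak of another list, and the nearest start site was that of Neurod2, a neuronal transcription factor, at 20.7 kb. The IgG peak at chr11:98359540-98359948 lay 60.7 kb downstream of Erbb2, in intron 3 of 7 of Ikzf3, which encodes a transcription factor of lymphocytes. With a score of 58.9 it had rank 760 of 1007, the lowest rank of the 5 peaks in the windows. Pool 3 came no closer to Erbb2 than 3352 kb and pool 1 no closer than 10728 kb. Of the 7476 genes of like length, 16.5% had a PAX6 peak in the window and 8.00% an IgG peak.

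Erbb3, the receptor of NRG1 and NRG2 with little kinase activity of its own, lies on the minus strand at chr10:128004579-128026708 (ENSMUSG00000018166.8). Its window held no peak, and it was the only member with peaks of pool 3 within 500 kb. The pool 3 peak at chr10:128246408-128246909 lay 219.951 kb upstream, in intron 2 of 7 of Dnajc14, with a score of 95.15 and rank 388 of 724. The other, at chr10:127626016-127626378, lay 378 kb downstream near Gls2, which encodes a glutaminase, with a score of 134.12 and rank 194 of 724. An IgG peak at chr10:128303632-128303958 lay 277 kb upstream, and the nearest peaks of pool 2 and pool 1 were at 659 kb and 5329 kb. Of the 7583 genes of like length, 16.4% had a PAX6 peak in the window.

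Erbb4, the receptor shared by all 4 neuregulins, lies on the minus strand at chr1:68078760-69154633 (ENSMUSG00000062209.8). Length gives 1.07 PAX6 peaks for its window and none was found, and the nearest lay 564 kb away (pool 2). Those of pool 1 and pool 3 were at 1256 kb and 3411 kb. The IgG peak at chr1:69187601-69188277 (677 bp) lay between genes, 33.3 kb upstream of Erbb4, with a score of 62.21 and rank 609 of 1007. The pseudogene Gm8840 had the nearest start site, at 10.1 kb, and among protein-coding genes it was Erbb4 itself. Its CA run of 44 bp is in the sequence printed above. Of the 168 genes of like length, 54.8% had a PAX6 peak in the window and 35.7% an IgG peak.

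Very long genes held PAX6 peaks more often than not. Across all protein-coding genes, the share with a PAX6 peak in the window rose from 13.97% of those under 10 kb, through 26.8% at 100 to 300 kb, to 71.2% of those of at least 1000 kb (37 of 52, Wilson 95% interval 57.7 to 81.7%). Those 52 genes held 0 to 6 PAX6 peaks, with a median of 1. Nrg3 and Erbb4 were among the 15 without a PAX6 peak, and among the 5 of these that had an IgG peak. For the pair, length gives 2.16 PAX6 peaks and 0 were found (interval up to 3.69), against 2 IgG peaks where length gives 0.978.

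**Figure D3:**
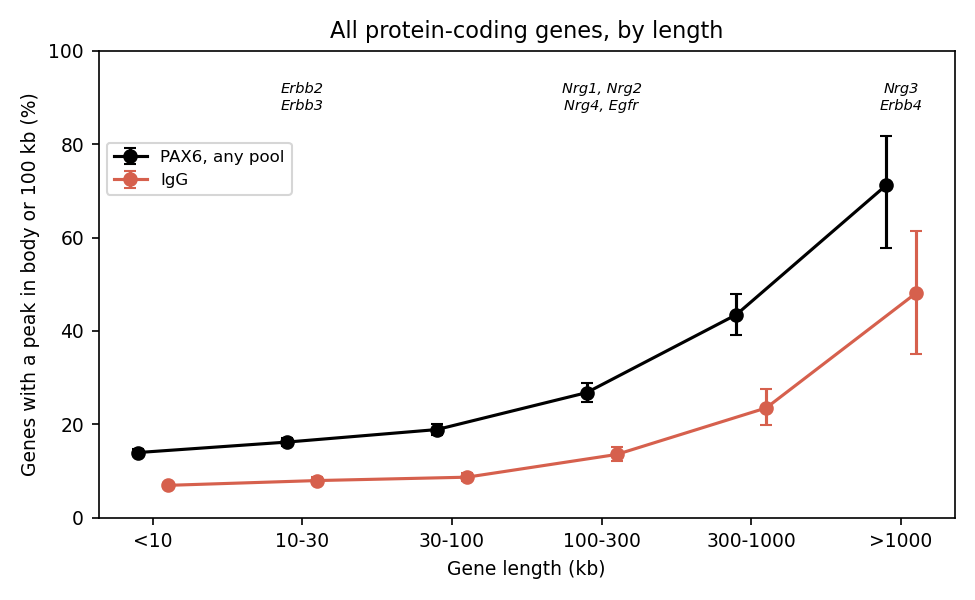
Share of all protein-coding genes (y axis, percent) with a PAX6 peak of any pool (black) or an IgG peak (red) in the gene body or within 100 kb, by gene length in kb (x axis), with Wilson 95% intervals; the member genes are written above their length class. The PAX6 share is 16.2% in the class of Erbb2 and Erbb3, 26.8% in that of Nrg1, Nrg2, Nrg4 and Egfr, and 71.2% in that of Nrg3 and Erbb4. PAX6 joins the lists of all pools and IgG is a single list, so the gap between black and red does not compare PAX6 with IgG.

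Distance to the nearest peak, which needs no window, differed by list. In pool 2 the 8 genes lay 88.7 to 1494 kb from a peak with a median of 612 kb, where the median of all protein-coding genes was 968 kb. In pool 1 their median was 3284 kb (all genes 1908 kb), and in pool 3 it was 3381 kb (all genes 1226 kb). For IgG it was 183 kb (all genes 967 kb), with a range from 0 to 8411 kb. Counted by gene, 6 of the 8 lay closer than the median gene to a peak of pool 2 and 6 of 8 to an IgG peak, whereas 6 of 8 lay farther from pool 1 and 7 of 8 farther from pool 3. Over the 3 pools together the median was 455 kb (all genes 415 kb), with 4 of 8 closer and 4 farther. Set against genes of 0.5 to 2 times their own length, 5 of 8 lay farther from a PAX6 peak than the median of those genes. Nrg3 lay at 901 kb where that median was 4.75 kb, Erbb4 at 564 kb where it was 18.5 kb, Nrg2 at 1494 kb where it was 323 kb and Nrg4 at 1434 kb where it was 344 kb. For IgG, 2 of 8 lay farther than the median of genes of like length, and in pool 2 it was 4 of 8. For 6 of the 8 genes the nearest PAX6 peak came from pool 2, the largest PAX6 list, while it was from pool 1 for Nrg4 and from pool 3 for Erbb3.

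**Figure D4:**
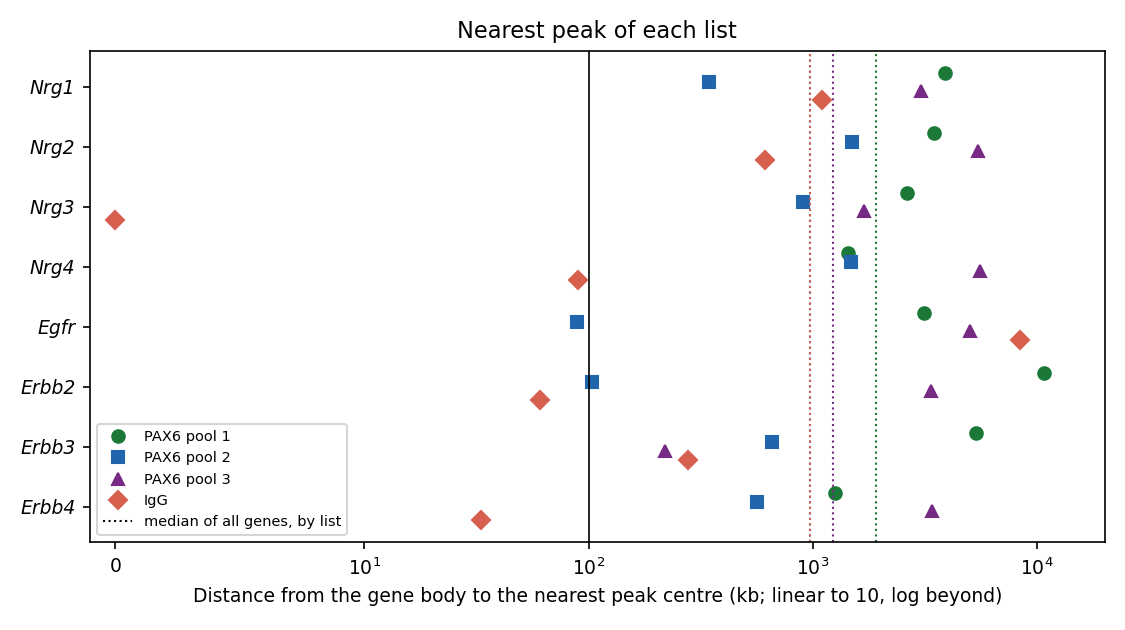
Distance in kb from each gene body (y axis) to the nearest peak centre of each list (x axis, linear to 10 kb and logarithmic beyond, with 0 for a peak in the gene body); the vertical line marks the 100 kb limit and dotted lines the medians of all protein-coding genes, those of pool 2 (968 kb) and IgG (967 kb) lying on each other. Every pool 1 distance is at or above 1256 kb, and the pool 2 peak of Erbb2 stands just right of the limit.

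Whether the pools share a region could not be examined in these windows, since only pool 2 had a peak there. None of the 5 peaks in the windows, nor of the other 6 within 500 kb, overlapped a peak of another list by 1 bp or more. Over the whole series such an overlap was found for 9.61% of the peaks of pool 1, 3.63% of pool 2, 6.60% of pool 3 and 7.75% of IgG, so that most peaks had none.

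The sequence of the peaks was then compared with that of the windows around them. All 5 peaks held a CA or TG run of at least 20 bp, with longest runs of 36 bp (Egfr), 46 bp (Nrg3), 27 bp (Nrg4), 36 bp (Erbb2) and 44 bp (Erbb4). Such a run was found in 55.2% of all PAX6 peaks, 62.6% of IgG peaks, 5.13% of 500 bp tiles of the 8 windows and 4.61% of tiles over the chromosomes. Motif 1 of the study's motif table, of 30 positions and searched on both strands with up to 6 mismatches, matched all 5 peaks, 4 of them with 0 mismatches. In those 4 the best match lay wholly inside the CA or TG run, so that run and motif are not separate observations. Motif 1 occurred in 74.2% of all PAX6 peaks and 87.9% of IgG peaks, against 8.11% of tiles in the windows and 7.69% over the chromosomes. Motif 2, of 14 positions with up to 2 mismatches, matched all 5 peaks as well, with shares of 75.8%, 89.5%, 12.2% and 11.7% in the same order. The study found both motifs by a search within PAX6 binding regions called from these same data. Their shares in PAX6 peaks are therefore not independent of the peaks, and are given as a description.

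Patterns known from PAX6 itself were searched on both strands in the same peaks. The letters TTCACGC, taken as a core of the site of the paired domain, were in none of the 5 peaks, in 0.496% of all PAX6 peaks, 0.795% of IgG peaks and 0.772% of tiles of the windows. TAAT followed by ATTA 3 bases further, an arrangement of sites for the homeodomain, was in none of the 5 either, in 0.991% of PAX6 peaks, 0.696% of IgG peaks and 2.10% of tiles of the windows. Both patterns are short, and a match or its absence in a peak is a description of its letters only.

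CA or TG repeats were frequent at the 8 genes, and almost all lay outside peaks. The windows held 497 of them (20 bp or longer), 111 per Mb, where the chromosomes held 103 per Mb, and 292 of them lay in the gene bodies. Of the 497, 2 lay under the PAX6 peak (0.402%), 6 under the IgG peaks (1.21%) and 489 under none. The 2 under PAX6 shared 1 peak, and 3 of those under IgG shared the Erbb2 peak, so that repeats are not separate observations. Of all such repeats on the chromosomes, 0.754% lay under a PAX6 peak and 0.393% under an IgG peak. PAX6 here joins 3 lists and IgG is 1 list, so these shares do not compare PAX6 with IgG. Nrg3, the longest gene, held 145 repeats in its window with 1 under a peak, Erbb4 held 118 with 1, and Nrg1, Nrg2 and Erbb3, with 42, 54 and 31, had none under a peak. The densities ran from 92.5 per Mb at Erbb4 to 160 per Mb at Erbb2.

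**Figure D5:**
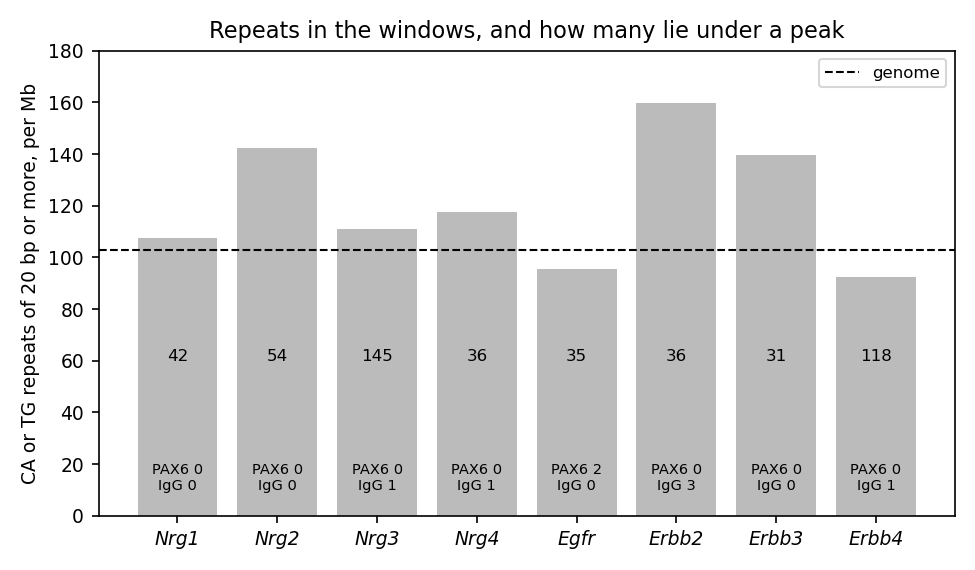
Number of CA or TG repeats, 20 bp or longer, per Mb of window (y axis) for each gene (x axis), with the number of repeats written in each bar and the numbers under PAX6 and IgG peaks at its foot; the dashed line is the density over the chromosomes, 103 per Mb. Egfr is the only gene with repeats under a PAX6 peak, 2 of 35.

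The ERBB pathway beyond the 8 genes was described with a list of 36 further genes, all found in the annotation (Hras as Hras1). A PAX6 peak lay in the window of 5 of the 36 (13.9%, background 17.5%) and an IgG peak in that of 3 (8.33%, background 8.62%). By pool it was 3 genes in pool 1 (8.33%, background 4.25%), all 3 by the same peak, 2 in pool 2 (5.56%, background 8.07%) and 0 in pool 3 (background 6.83%). The shares for PAX6 in any pool and for IgG were thus near those of all protein-coding genes. The 36 windows held 3 distinct PAX6 peaks, or 5 with the shared peak counted once for each gene, where length gives 7.48 in the latter way of counting. They held 3 IgG peaks, where length gives 3.39.

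Of the 7 EGFR ligands, 4 had a PAX6 peak in the window, but 3 of these are neighbours that share 1 peak (background 17.5% of genes). Counted by gene these are 4 peaks, where the length of the 7 windows gives 1.38. This peak of pool 1, at chr5:91501636-91502144, lay 1.753 kb upstream of Ereg (epiregulin), 37.6 kb from Epgn (epigen) and 66.8 kb from Areg (amphiregulin). It had a score of 52.9 and rank 431 of 491, near the foot of the list. For Tgfa, which encodes transforming growth factor alpha, a pool 2 peak 87.3 kb downstream had a score of 50.47, rank 1030 of 1032, and an IgG peak 45.2 kb downstream had rank 36 of 1007. None of the 4 sheddases and proteases that release the ligands had a PAX6 peak, where length gives 0.894 (background 17.5% of genes). Length gives 0.405 IgG peaks there, and Adam17 had an IgG peak at 95.3 kb.

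For the 18 adaptors and effectors, length gives 3.76 PAX6 peaks (background 17.5% of genes). Src, which encodes a tyrosine kinase downstream of the receptors, was the only one with a PAX6 peak. It was a pool 2 peak at chr2:157297729-157298021, 0.277 kb past the end of the gene, with a score of 71.68 and rank 417 of 1032. None of the 7 negative regulators and partners had a PAX6 peak, where length gives 1.45 (background 17.5% of genes). Length gives 0.658 IgG peaks there. Errfi1, a feedback inhibitor of EGFR, had an IgG peak 3.27 kb upstream with rank 156 of 1007. For none of these peaks was there an overlap with a peak of another list.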

How the data were processed

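PAX6 ChIP, input and IgG libraries were sequenced from EPCs grown as NLBs. Reads were aligned by the authors with Bowtie (mm9), and MACS was run by them on the merged libraries of a pool or of IgG. The version of each is not given in the sources used here. Deposited lists give positions and, per peak, a score. The lists have no header, and the score was taken as the authors' MACS p-value on a −log10 scale multiplied by 10 from the heading of such a column in the study. The lists hold no counts of reads, so the precision that depth gives to a peak is unknown.

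Peaks were placed by their centre on GENCODE M1 (mm9), within the body of each of the 8 genes or 100 kb of it, and set beside the number that window length and the peaks per Mb of each list give. Intervals were exact Poisson or Wilson at 95%. Sequence came from the mm9 (NCBIM37) reference. No test across genes was run. The named genes were the 8 members, the genes that overlap or lie nearest to their peaks, and the genes of the pathway list with a PAX6 peak. Pathway genes with an IgG peak only were named after their values were seen. The members and lists were chosen with earlier results of these data known. RefSeq served for gene lengths and synonyms only, since its build differs. The assignment of peaks and the searches for motifs and repeats were tested on simulated data, and the overlap between lists was not. Alternatives were the window, score limits, removal of peaks that overlap IgG, the overlap rule, each pool left out, the gene models, the genome length and the mismatches allowed, and, added after the data were seen, the RefSeq length of Nrg1 and the density of the own chromosome. The tools were pysam 0.24.0, numpy 2.4.6, scipy 1.17.1 and matplotlib 3.10.9 under Python 3.11.15.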

Additional observations from a re-analysis of the deposited data

How the results depend on the processing

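The 8 windows held 1 PAX6 peak, at 1 gene, and both counts became 0 with gene bodies alone and with windows of 50 kb, and 3 with windows of 250 kb, which took in the peaks near Erbb2 and Erbb3. Leaving out each pool in turn gave 0 to 1 for both, with 0 where pool 2 was left out. The 4 IgG peaks became 1 in gene bodies alone, 2 with windows of 50 kb, 1 at a score of at least 70, 0 at a score of at least 100 and 3 with the span of protein-coding transcripts, which ended the Nrg4 call. A score limit is not alike between lists, whose median scores were 62.05, 68.98 and 105.6 in pools 1, 2 and 3 and 65.61 in IgG. Counts at a score limit therefore do not compare PAX6 with IgG. At a score of at least 100 in every list, the ratio of PAX6 density in the windows to that of the chromosomes became 1.75 ± 3.03 (SD, n = 3 pools), since the lists shortened and the Egfr peak stayed. Under the other 13 settings it ran from 0 to 0.446, which is within 1 SD of 0.194, and from 0 to 0.292 with each pool left out. Of 50 recomputed values in all, 37 stayed within 1.5 times the main count or 1 SD of the main ratio. The RefSeq length of Nrg1 and the density of the own chromosome, both added after the data were seen, were among them. This tally does not measure robustness, since several values could not move. The SD of the ratio exceeded its mean, so that a ratio of 0 counted as within 1 SD. Leaving out pool 1 or 3 could not change the PAX6 counts. Removing PAX6 peaks that overlap IgG could not change the IgG count. Sharing between pools could not be examined under any overlap rule, since pools 1 and 3 had 0 peaks in the windows. All 5 peaks kept matches to both motifs with 4 and 1 mismatches. No paired analysis was possible because the peaks were called on merged libraries and no test was run. With 1 to 4 peaks and unknown depth, differences of a few peaks were not detectable, and a region without a peak is one in which none was called, not one without PAX6.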
